A study of Arabidopsis thaliana with 12 samples.

Results

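The 33 Arabidopsis genes XTH1 to XTH33, which encode xyloglucan endotransglucosylase/hydrolases, were chosen by their gene identifiers from the 23911 genes of the deposited count table. All 33 were found in it, from AT1G10550 (XTH33) to AT5G65730 (XTH6), and 30 of them passed the filter on low counts. The rule reads the identifiers alone, but the family was chosen with earlier results of these data known.

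Poly(A) RNA of Arabidopsis thaliana seedlings, aged 2 to 3 weeks, was sequenced in 12 samples, which gave 4 groups of 3. The groups were wild type Col-0 without abscisic acid (ABA), wild type 4 h after spraying with 50 µM ABA, and the mutant hda9-1 without and with the same spray. HDA9 is a histone deacetylase, hda9-1 is a mutant allele of its gene in the Col-0 background, and ABA is a hormone that plants make in drought. Every seedling grew on MS medium with 1% sucrose at 20 °C in days of 16 h light and 8 h dark.

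No mock spray is described and the table's columns are named 0h and 4h, so an effect of ABA cannot be told apart from one of spraying or of the 4 h between harvests. The labels' treatment field gives no ABA for all wild-type and ABA for all hda9-1 samples, against the titles, from which the groups were taken. Titles mark each sample as a biological replicate (Bio Rep) without saying what separated the 3 of a group, so each p-value rests on the spread among these samples. Library totals ran from 42703802 to 52820930 counts. HDA9 itself stood between 15.7 and 17.1 CPM (counts scaled to a common library total, with TMM factors) in the 6 wild-type samples and between 4.72 and 5.87 CPM in the 6 hda9-1 samples, with no overlap, so the genotype labels held. Markers of leaf cells, 5 genes, summed to 27190 to 34840 CPM over the 12 samples, all 10 root markers were detected in every group, and 4 floral organ markers summed to 1.59 to 8.89 CPM.

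Xyloglucan is the main hemicellulose of the primary wall of Arabidopsis and coats and tethers cellulose microfibrils. XTH enzymes cut a xyloglucan chain and join the new end to another chain or, in a few members, to water, so that a wall can be loosened, extended or rebuilt without being taken apart. The family is read in plant physiology as a set of growth enzymes, since members differ in the organ, hormone and stress to which their transcripts respond.

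The active site lies in a short conserved stretch with a pair of glutamates, the nucleophile and the acid/base of the reaction. The 30 coding bases of that stretch are shown for the 6 members on which the results turn most or which break the pattern. They were read from the RefSeq TAIR10.1 genome along each gene's strand, and capitals mark the codons of the catalytic glutamates.
XTH4: catgacGAGatagactttGAGttccttgga
XTH15: catgacGAGatagactttGAGtttctaggt
XTH24: tgggatGAGattgattttGAGttcttgggt
XTH25: tgggacGAAatcgatttcGAGtttcttggt
XTH31: cacgatGAGgtcgatatcGAGtttctaggg
XTH11: catgatGAGctctgtttcCAGatcttggga
A glutamate codon stood at both places in 32 of the 33 genes. XTH11 has CAG, a glutamine codon, at the second place. The first codon, tgg in XTH24 and XTH25 and a histidine codon in the other genes shown, splits the family. It is tgg in 12 members, which are XTH12 to XTH14 and XTH17 to XTH25. The predicted proteins are 269 to 357 residues long.

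Upstream windows are shown for XTH15 and XTH25, the members with the largest rise after ABA in wild type, and for XTH18 and XTH20, which fell in both genotypes and hold a stress motif. Each is the 300 bases before the annotated start in RefSeq TAIR10.1, read along the gene's strand: chr4:8138393-8138692 (minus strand), chr5:23306441-23306740 (minus), chr4:14827212-14827511 (minus) and chr5:19481597-19481896 (plus). Capitals mark the rapid stress response element CGCGTT or its complement.
XTH15: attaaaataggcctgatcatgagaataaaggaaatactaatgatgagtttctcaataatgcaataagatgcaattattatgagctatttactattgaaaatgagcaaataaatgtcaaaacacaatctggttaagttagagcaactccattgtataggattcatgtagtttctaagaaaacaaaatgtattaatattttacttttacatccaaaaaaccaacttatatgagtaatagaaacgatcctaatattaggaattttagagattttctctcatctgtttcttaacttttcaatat
XTH25: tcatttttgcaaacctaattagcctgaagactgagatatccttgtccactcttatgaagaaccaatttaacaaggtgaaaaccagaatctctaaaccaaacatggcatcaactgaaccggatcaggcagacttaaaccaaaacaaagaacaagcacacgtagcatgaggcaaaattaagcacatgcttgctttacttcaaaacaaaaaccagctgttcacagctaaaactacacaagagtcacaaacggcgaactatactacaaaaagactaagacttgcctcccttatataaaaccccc
XTH18: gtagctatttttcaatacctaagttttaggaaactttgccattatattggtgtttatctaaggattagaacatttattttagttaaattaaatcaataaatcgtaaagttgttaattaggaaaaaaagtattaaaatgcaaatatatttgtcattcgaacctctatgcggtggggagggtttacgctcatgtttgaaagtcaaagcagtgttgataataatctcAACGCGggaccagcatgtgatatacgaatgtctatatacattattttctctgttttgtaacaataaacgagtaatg
XTH20: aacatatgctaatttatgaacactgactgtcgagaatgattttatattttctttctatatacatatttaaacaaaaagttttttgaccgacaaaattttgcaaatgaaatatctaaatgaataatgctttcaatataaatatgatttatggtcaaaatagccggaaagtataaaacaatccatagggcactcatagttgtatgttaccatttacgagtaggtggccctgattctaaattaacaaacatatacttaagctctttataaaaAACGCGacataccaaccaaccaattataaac
On both strands, the ABA response element ACGTGNC was in 0 of the 33 XTH windows and in 10.2% of 23654 windows of the table's genes. The G-box CACGTG, whose matches can overlap that element, was in 0 of 33 and in 7.66% of all. CGCGTT was in 3 of 33, those of XTH13, XTH18 and XTH20, and in 3.2% of all. A match is a description of letters in this window only.

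Without ABA, XTH24 and XTH4 supplied much of the family's transcript in both genotypes. Levels of different genes are compared here as CPM per kb of exon. In wild type XTH24, a gene first found in meristem libraries, had 341.2 ± 120.5 CPM per kb (SD, n = 3) and XTH4, a gene of expanding and woody tissue, had 243 ± 12.4. The samples of this pair overlapped. The pair gave 48.9% of the family's summed CPM per kb in wild type without ABA, 45.9% with ABA, 52.4% in hda9-1 without ABA and 57.2% with it. Next in wild type came XTH27 (EXGT-A3, a gene of leaf vascular tissue) with 101 ± 11.1 CPM per kb and XTH9 with 99.5 ± 3.55, which overlapped, and both lay below every XTH4 sample. XTH22, the touch-induced TCH4, followed with 58.2 ± 8.61, and overlapped XTH7 with 50.6 ± 4.21.

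After ABA the order changed. In wild type XTH15 moved from rank 10, at 28.1 ± 5.24 CPM per kb, to rank 2, at 175 ± 14.9, and its samples did not overlap those of XTH24 above or XTH9 below. In hda9-1 it moved from rank 10, at 21.4 ± 4.40, to rank 7, at 50.4 ± 11.5. XTH4 fell from rank 2 to rank 5 in wild type and from rank 2 to rank 3 in hda9-1. With ABA its samples overlapped those of XTH9 and XTH27 in both genotypes, so its rank there is not resolved. XTH15 also overlapped the member ranked next at rank 10 in both genotypes and at rank 7 in hda9-1. XTH24 held rank 1 in all 4 groups and reached 806 ± 218 CPM per kb in hda9-1 with ABA. The summed family level was 1196 ± 158 CPM per kb in wild type without ABA and 1657 ± 190 with it, and 1071 ± 172 and 1619 ± 278 in hda9-1.

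**Figure D1:**
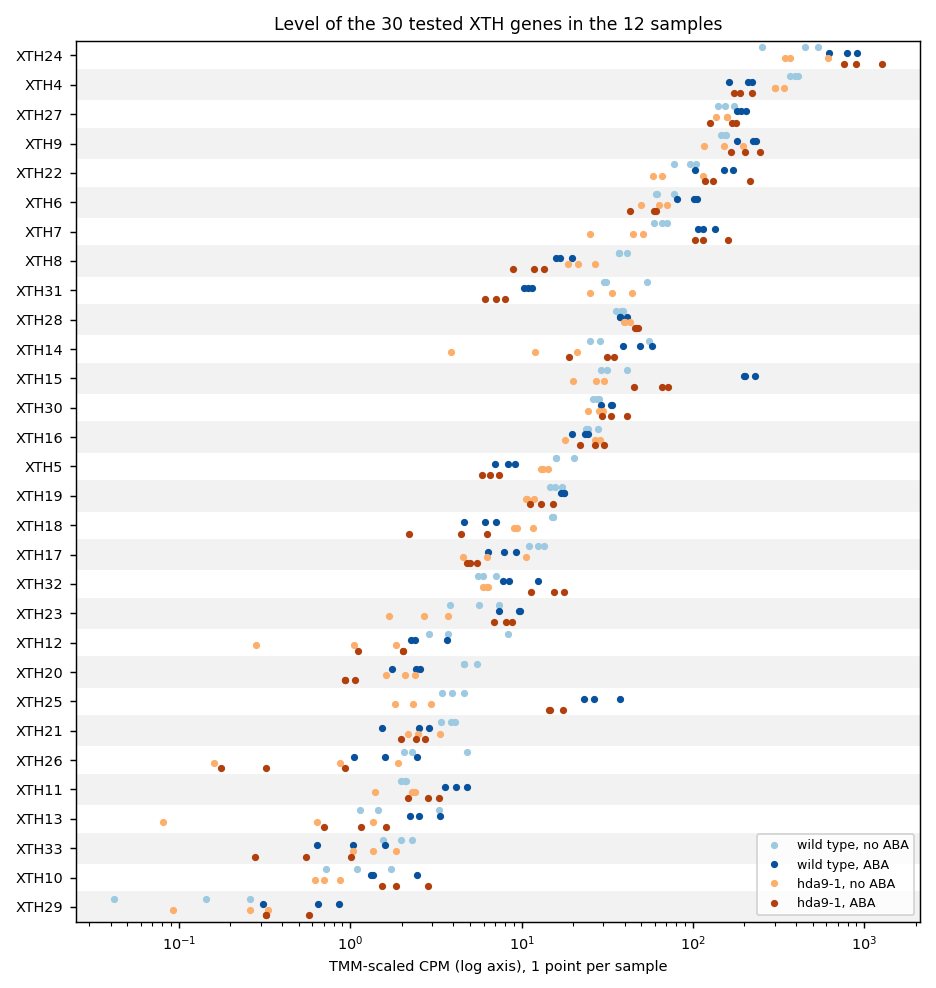
TMM-scaled CPM (log axis) of the 30 tested XTH genes, 1 point per sample, coloured by group and ordered by level in wild type without ABA. The levels span from below 0.1 CPM for XTH29 to 1270 CPM for XTH24. The dark (ABA) points of XTH25 and the wild-type ABA points of XTH15 stand far to the right of the pale ones. For XTH15 the hda9-1 ABA points start at 45.2 CPM, near its highest pale point at 41.1 CPM.

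In wild type, ABA moved XTH genes in both directions. XTH25 and XTH15 rose most, and XTH31, XTH18 and XTH8 fell most. At an adjusted p below 0.05 from edgeR's quasi-likelihood test over 20924 genes, 7 of the 30 tested members rose and 8 fell, while 17% of all tested genes rose and 14% fell (30.9% in all). The members' median log2 fold change was 0.27 against -0.02 for all genes tested. The wild-type groups with and without ABA did not overlap for 19 of 30 members, against 51.6% of all genes. Of the genes called in wild type, 54.9% rose with TMM scaling and 43.3% with upper-quartile factors, under which the members still gave 7 higher and 8 lower. The 7 higher became 3 without wild-type no-ABA sample 1 and 11 when only the 2 groups were fitted.

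In hda9-1, 9 members rose with ABA and 7 fell, against 23.3% and 18.6% of all tested genes (41.9% in all). Their median was 0.29 against 0.01 for all genes, and the groups did not overlap for 16 of 30, against 46.7% of all. The responses of the 2 genotypes share no samples. They shared 10 members called in the same direction, 66.7% of the 15 called in wild type and 62.5% of the 16 called in hda9-1, and 27 of 30 fold changes had the same sign, with XTH6, XTH12 and XTH16 the exceptions. Over all tested genes the shared calls were 80% of those in wild type and 59% of those in hda9-1, and 78.1% of fold changes had the same sign. Transcript length moved with this contrast: the median log2 fold change in hda9-1 was 0.28 for genes of up to 1273 nt of exon and -0.15 for those above 2368 nt. XTH transcripts are short, with a median of 1263 nt against 1766 nt for all tested genes. With the length and GC trends of each library removed, 7 members rose and 8 fell in hda9-1.

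**Figure D2:**
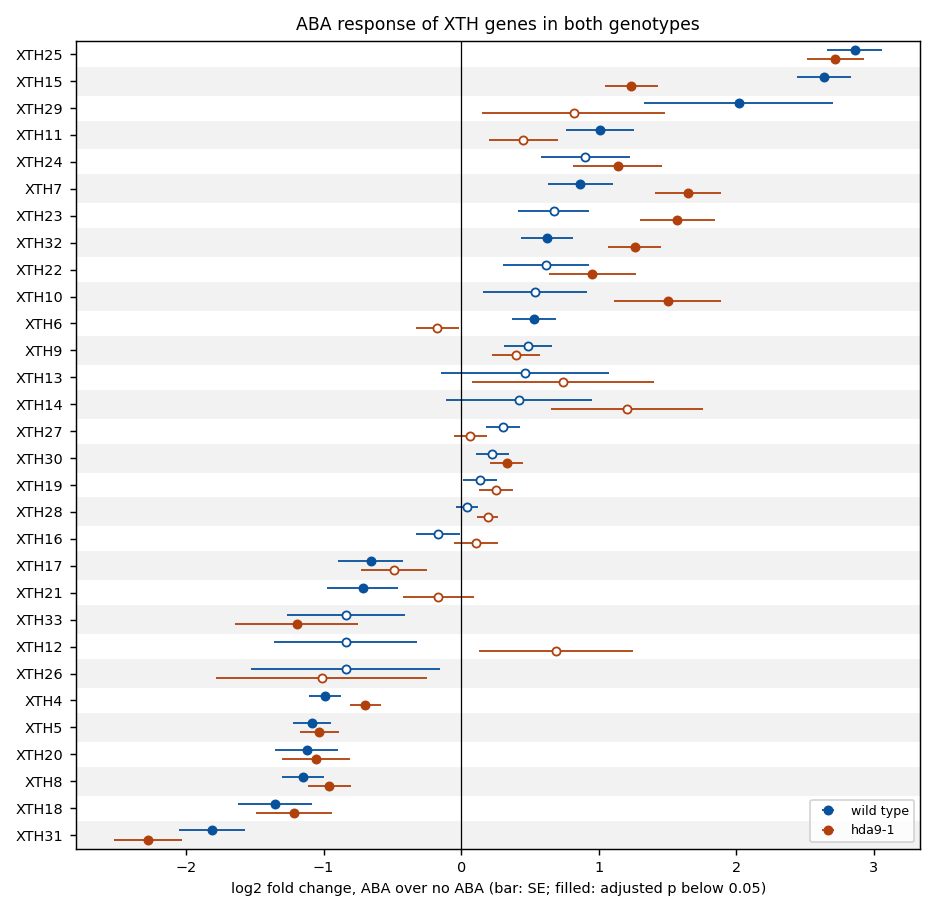
log2 fold change after ABA (x axis, bar: SE) of each tested XTH gene in wild type and in hda9-1, filled where the adjusted p was below 0.05. XTH25 and XTH15 lie at the top, with wild-type values of 2.86 and 2.64, and XTH31 lies at the bottom in both genotypes.

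Among members known from shade and stress studies, XTH15 (AT4G14130, formerly XTR7) had 31.4, 29.2 and 41.1 CPM without ABA and 203, 198 and 231 CPM with it in wild type. XTH15 in hda9-1 had 20.0, 30.4 and 27.0 CPM without ABA and 71.7, 45.2 and 65.7 CPM with it. Every ABA sample was above every sample without ABA, and the 3 wild-type ABA samples stood far above the 3 of hda9-1. The log2 fold change was 2.64 ± 0.20 (adjusted p = 7e-07) in wild type, and 1.24 ± 0.19 (adjusted p = 0.00027) in hda9-1. The annotated gene AT4G14120 overlaps XTH15 by 382 nt on the opposite strand, and whether the counting used strand is not stated. It had 31 to 90 counts per library, against 969 to 11079 for XTH15.

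XTH25 (AT5G57550) was low before ABA and rose in both genotypes. Its wild-type samples had 4.63, 3.91 and 3.42 CPM without ABA and 26.4, 23.3 and 37.4 CPM with it. XTH25 in hda9-1 had 2.31, 2.94 and 1.83 CPM without ABA and 17.4, 14.5 and 14.7 CPM with it. All 6 ABA samples were above all 6 without it. The log2 fold changes were 2.86 ± 0.20 (adjusted p = 2.5e-08) in wild type, and 2.72 ± 0.21 (adjusted p = 4.9e-08) in hda9-1.

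XTH22 and XTH23, which respond to touch and stress, passed the edgeR test for ABA in hda9-1 and missed it in wild type, and their responses were not called different between the genotypes (difference 0.34 ± 0.44, adjusted p = 0.8 for XTH22 and 0.90 ± 0.37, adjusted p = 0.38 for XTH23). XTH22 (TCH4) had 77.3, 104 and 96.4 CPM without ABA and 170.4, 103 and 152 CPM with it in wild type, where the groups overlapped. XTH22 in hda9-1 had 58.3, 115 and 65.8 CPM without ABA and 214, 130.2 and 118 CPM with it, with the ABA samples higher. Its fold change was 0.62 ± 0.31 (adjusted p = 0.17) in wild type, and 0.95 ± 0.32 (adjusted p = 0.035) in hda9-1, where it rose. That call held in 7 of the 12 fits that each left out 1 library, and ended without wild-type ABA sample 3 (adjusted p = 0.05), hda9-1 no-ABA sample 1 (adjusted p = 0.11), hda9-1 no-ABA sample 3 (adjusted p = 0.12), hda9-1 ABA sample 1 (adjusted p = 0.12) or hda9-1 ABA sample 2 (adjusted p = 0.051). It also ended with length and GC trends removed (adjusted p = 0.061), with no filter (adjusted p = 0.052), with only the 2 groups fitted (adjusted p = 0.062) and with a replicate block (adjusted p = 0.069). XTH23 (XTR6) had 3.80, 7.39 and 5.62 CPM without ABA and 9.78, 7.36 and 9.62 CPM with it in wild type, and in hda9-1 it had 1.67, 3.70 and 2.69 CPM without ABA and 8.81, 8.16 and 6.95 CPM with it. Its groups overlapped in wild type, by 1 sample on each side, and not in hda9-1, and the fold change was 0.67 ± 0.26 (adjusted p = 0.063) in wild type, and 1.57 ± 0.27 (adjusted p = 3e-04) in hda9-1. XTH23 did pass in wild type with limma-voom (0.72, adjusted p = 0.024), with DESeq2 (0.68, adjusted p = 0.034), with length and GC trends removed (0.70, adjusted p = 0.046) and with only the 2 groups fitted (0.69, adjusted p = 0.027).

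XTH24, the most abundant member, had 252, 537 and 449 CPM without ABA and 795, 619 and 902 CPM with it in wild type, and in hda9-1 it had 343, 615 and 371 CPM without ABA and 1270, 892 and 763 CPM with it. The ABA samples were higher in both genotypes with no overlap, and wild-type sample 1 without ABA was the lowest of all 12. The fold change passed the test in hda9-1 (1.14 ± 0.32, adjusted p = 0.017) and missed it in wild type (0.90 ± 0.32, adjusted p = 0.057). The hda9-1 call ended without hda9-1 no-ABA sample 1 (adjusted p = 0.067), hda9-1 no-ABA sample 3 (adjusted p = 0.07) or hda9-1 ABA sample 1 (adjusted p = 0.063), and with a replicate block together with removal of length and GC trends (adjusted p = 0.054). In wild type DESeq2 called the rise (0.91, adjusted p = 0.028), and so did edgeR without wild-type no-ABA sample 2 (1.14, adjusted p = 0.037), hda9-1 no-ABA sample 2 (0.90, adjusted p = 0.032) or hda9-1 ABA sample 1 (0.90, adjusted p = 0.049). The response of XTH24 was not called different between the genotypes (0.24 ± 0.45, adjusted p = 0.87).

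XTH4 and XTH5, a pair expressed in growing tissue, fell together. XTH4 had 409.7, 370.3 and 397 CPM without ABA and 221, 164 and 209 CPM with it in wild type, and in hda9-1 it had 302, 339 and 303 CPM without ABA and 220.2, 189 and 174 CPM with it. No sample with ABA reached any sample without it in either genotype. Its log2 fold changes were -0.99 ± 0.12 (adjusted p = 6.5e-06) in wild type, and -0.70 ± 0.11 (adjusted p = 0.00016) in hda9-1. XTH5 had 20.1, 15.8 and 15.8 CPM without ABA and 6.96, 9.11 and 8.31 CPM with it in wild type, and in hda9-1 it had 13.3, 14.3 and 13.1 CPM without ABA and 7.38, 6.54 and 5.91 CPM with it, again with no overlap. XTH5 changed by -1.09 ± 0.14 and -1.03 ± 0.14 (log2, both adjusted p at or below 3e-05), so its level was about 2.1-fold lower in wild type and 2.0-fold lower in hda9-1.

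XTH31 and XTH32 form the group predicted to hydrolyse xyloglucan, and they moved in opposite directions. XTH31 had 31.3, 53.7 and 30.2 CPM without ABA and 10.9, 11.5 and 10.4 CPM with it in wild type, and in hda9-1 it had 44.0, 33.7 and 25.0 CPM without ABA and 7.11, 7.96 and 6.11 CPM with it. All ABA samples lay below all samples without it. Its log2 fold changes were -1.81 ± 0.24 (adjusted p = 9.9e-05) in wild type, and -2.28 ± 0.25 (adjusted p = 1.4e-05) in hda9-1, the largest falls of the family in each. XTH32 had 5.55, 7.08 and 5.99 CPM without ABA and 8.50, 12.4 and 7.75 CPM with it in wild type, and in hda9-1 it had 5.97, 6.28 and 6.38 CPM without ABA and 11.4, 15.6 and 17.7 CPM with it, with the ABA samples higher and not overlapping. Its fold changes were 0.62 ± 0.19 (adjusted p = 0.02) in wild type, and 1.26 ± 0.19 (adjusted p = 7.1e-05) in hda9-1. The wild-type call ended without wild-type no-ABA sample 1 (adjusted p = 0.076), wild-type no-ABA sample 3 (adjusted p = 0.066) or wild-type ABA sample 2 (adjusted p = 0.13), and with length and GC trends removed (adjusted p = 0.065).

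XTH17 to XTH21 are known mainly from roots. XTH18 had 15.3, 15.2 and 15.0 CPM without ABA and 6.10, 4.64 and 7.12 CPM with it in wild type, and in hda9-1 it had 11.6, 9.03 and 9.35 CPM without ABA and 6.28, 4.46 and 2.21 CPM with it. The ABA samples were lower in both genotypes with no overlap, and the fold changes were -1.35 ± 0.27 (adjusted p = 0.0017) in wild type, and -1.22 ± 0.27 (adjusted p = 0.0029) in hda9-1. XTH20, also linked to healing of cut stems, had 4.63, 5.46 and 4.61 CPM without ABA and 1.76, 2.42 and 2.57 CPM with it in wild type, and in hda9-1 it had 2.09, 2.39 and 1.61 CPM without ABA and 1.06, 0.932 and 0.926 CPM with it. Its hda9-1 samples with ABA were the lowest of the 12, and wild-type samples without ABA the highest. The fold changes were -1.12 ± 0.23 (adjusted p = 0.0014) in wild type, and -1.06 ± 0.25 (adjusted p = 0.0026) in hda9-1.

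XTH17 had 13.6, 11.1 and 12.5 CPM without ABA and 7.88, 6.39 and 9.25 CPM with it in wild type, and in hda9-1 it had 10.6, 6.28 and 4.54 CPM without ABA and 4.78, 5.51 and 5.01 CPM with it. It fell in wild type (-0.66 ± 0.24, adjusted p = 0.048) and overlapped in hda9-1 (-0.49 ± 0.24, adjusted p = 0.12). XTH21, linked to root growth, had 3.89, 3.38 and 4.09 CPM without ABA and 2.90, 1.54 and 2.51 CPM with it in wild type, and in hda9-1 it had 3.35, 2.18 and 2.47 CPM without ABA and 2.42, 1.99 and 2.74 CPM with it. It too fell in wild type, with no overlap (-0.71 ± 0.26, adjusted p = 0.046), while the groups overlapped in hda9-1 (-0.17 ± 0.26, adjusted p = 0.64). Both calls rested on few samples. XTH17 kept it in 2 of 12 fits that left out 1 library, those without hda9-1 no-ABA sample 1 or 3, with an adjusted p of up to 0.17. XTH21 kept it in 6 of 12, and lost it without wild-type no-ABA sample 1 (adjusted p = 0.11), wild-type no-ABA sample 2 (adjusted p = 0.061), wild-type no-ABA sample 3 (adjusted p = 0.13), wild-type ABA sample 2 (adjusted p = 0.19), wild-type ABA sample 3 (adjusted p = 0.083) or hda9-1 no-ABA sample 3 (adjusted p = 0.051). Of the 10 root markers 3 fell with ABA in wild type and 5 in hda9-1, with PIN2, an auxin carrier, in both, and none rose. Of all tested genes 14% and 18.6% fell, and 17% and 23.3% rose. PIN2 had means of 38.6 CPM without ABA and 17.5 CPM with it in wild type. RHD6 was not called, but its wild-type samples with ABA, 4.72, 5.355 and 5.365 CPM, were above those without, 2.18, 3.235 and 3.59 CPM. The 10 root markers summed to 141.5 to 144.8 CPM in wild type without ABA and 97.95 to 114.5 CPM with it. In hda9-1 they summed to 107 to 116 CPM and 76.5 to 95.4 CPM. In whole seedlings fewer root cells and less RNA per cell cannot be told apart, and the part of the root markers in these results was not tested.

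XTH8 had 41.5, 37.2 and 36.8 CPM without ABA and 19.8, 16.7 and 15.8 CPM with it in wild type, and in hda9-1 it had 26.7, 21.3 and 18.7 CPM without ABA and 8.88, 13.6 and 11.8 CPM with it. It fell in both, without overlap (-1.15 ± 0.15, adjusted p = 3.2e-05 in wild type, and -0.96 ± 0.16, adjusted p = 0.00016 in hda9-1). XTH7 had 59.4, 65.8 and 70.2 CPM without ABA and 107, 115 and 135 CPM with it in wild type, and in hda9-1 it had 45.0, 50.8 and 25.1 CPM without ABA and 103, 161 and 114 CPM with it. It rose in both, also without overlap (0.87 ± 0.24, adjusted p = 0.017 in wild type, and 1.65 ± 0.24, adjusted p = 0.00027 in hda9-1). The wild-type call of XTH7 ended without wild-type no-ABA sample 1 (adjusted p = 0.064) or wild-type ABA sample 3 (adjusted p = 0.066).

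XTH6 had 60.5, 77.3 and 61.8 CPM without ABA and 101, 81.1 and 106 CPM with it in wild type, where every ABA sample was higher. XTH6 in hda9-1 had 70.7, 63.2 and 49.9 CPM without ABA and 59.4, 60.6 and 43.2 CPM with it, with overlap. It rose in wild type only slightly (0.53 ± 0.16, adjusted p = 0.021) and the hda9-1 value had the opposite sign (-0.17 ± 0.16, adjusted p = 0.41). The wild-type call ended without wild-type no-ABA sample 1 (adjusted p = 0.078), wild-type no-ABA sample 3 (adjusted p = 0.08), wild-type ABA sample 1 (adjusted p = 0.066) or wild-type ABA sample 3 (adjusted p = 0.088). XTH11, which lacks the second catalytic glutamate codon, had 2.09, 2.12 and 1.99 CPM without ABA and 4.16, 4.79 and 3.55 CPM with it in wild type, and in hda9-1 it had 2.40, 1.40 and 2.29 CPM without ABA and 2.86, 3.30 and 2.18 CPM with it. It rose in wild type without overlap (1.01 ± 0.25, adjusted p = 0.0051), and the hda9-1 groups overlapped (0.45 ± 0.25, adjusted p = 0.16).

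Members of low level moved as well. XTH29, at the bottom of the tested range, had 0.144, 0.0420 and 0.260 CPM without ABA and 0.309, 0.857 and 0.647 CPM with it in wild type, and in hda9-1 it had 0.331, 0.0919 and 0.261 CPM without ABA and 0.323, 0.324 and 0.574 CPM with it. These values rest on 2 to 44 counts per library. It rose in wild type (2.02 ± 0.69, adjusted p = 0.034) and overlapped in hda9-1 (0.82 ± 0.67, adjusted p = 0.35), and the wild-type call ended without wild-type no-ABA sample 1 (adjusted p = 0.095), wild-type no-ABA sample 2 (adjusted p = 0.13), wild-type ABA sample 2 (adjusted p = 0.13) or wild-type ABA sample 3 (adjusted p = 0.092). XTH10 had 0.721, 1.09 and 1.73 CPM without ABA and 1.35, 2.45 and 1.32 CPM with it in wild type, with overlap, and 0.703, 0.873 and 0.622 CPM without ABA and 2.84, 1.54 and 1.85 CPM with it in hda9-1, without. It rose in hda9-1 (1.50 ± 0.39, adjusted p = 0.0058), against 0.54 ± 0.38 (adjusted p = 0.31) in wild type. XTH33, predicted to sit at the plasma membrane, had 2.31, 1.55 and 1.97 CPM without ABA and 1.59, 0.643 and 1.04 CPM with it in wild type, and in hda9-1 it had 1.86, 1.36 and 1.04 CPM without ABA and 0.277, 1.01 and 0.551 CPM with it. It fell in hda9-1 without overlap (-1.20 ± 0.45, adjusted p = 0.041), against -0.84 ± 0.43 (adjusted p = 0.15) in wild type, and that call ended without wild-type no-ABA sample 3 (adjusted p = 0.054), wild-type ABA sample 3 (adjusted p = 0.051), hda9-1 no-ABA sample 1 (adjusted p = 0.13), hda9-1 no-ABA sample 2 (adjusted p = 0.071), hda9-1 ABA sample 1 (adjusted p = 0.14) or hda9-1 ABA sample 3 (adjusted p = 0.097).

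XTH30 had 27.6, 28.4 and 26.1 CPM without ABA and 33.7, 29.3 and 33.2 CPM with it in wild type, and in hda9-1 it had 24.3, 30.02 and 28.5 CPM without ABA and 41.5, 33.2 and 29.4 CPM with it. Its rise in hda9-1 was small and its groups there overlapped (0.33 ± 0.12, adjusted p = 0.036), while the wild-type groups did not overlap and missed the test (0.23 ± 0.12, adjusted p = 0.17). The hda9-1 call ended without wild-type no-ABA sample 1 (adjusted p = 0.051), hda9-1 no-ABA sample 1 (adjusted p = 0.19), hda9-1 no-ABA sample 3 (adjusted p = 0.067) or hda9-1 ABA sample 1 (adjusted p = 0.22), and with length and GC trends removed (adjusted p = 0.073). Other scalings ended it too: RLE (adjusted p = 0.051), upper-quartile factors (adjusted p = 0.079) and library size alone (adjusted p = 0.063). A replicate block (adjusted p = 0.054) and a fit of only the 2 groups (adjusted p = 0.11) did so as well.

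**Figure D3:**
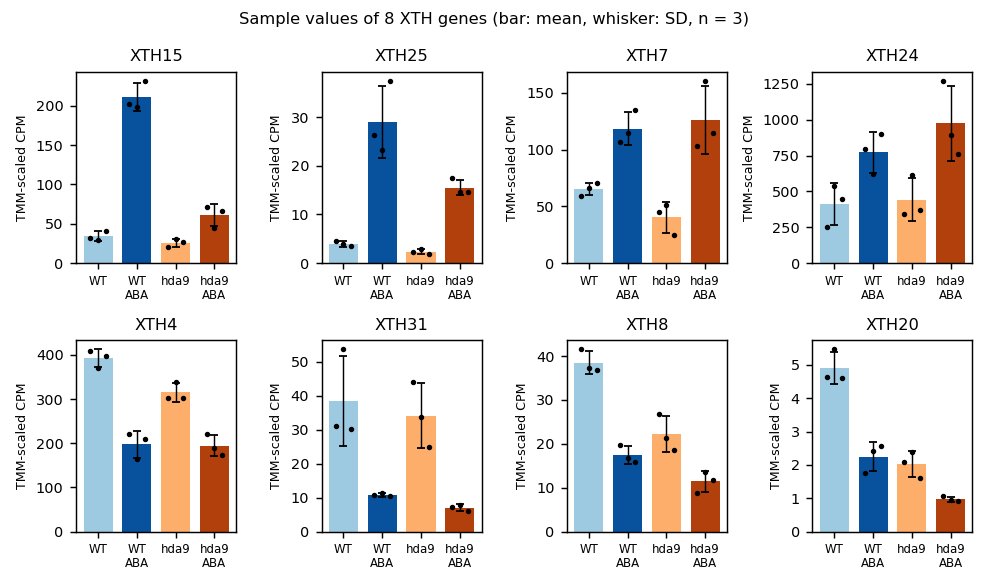
TMM-scaled CPM of 8 members in the 4 groups (bar: mean, whisker: SD, n = 3, points: samples). The wild-type ABA bar of XTH15 is at 211 CPM against 60.9 CPM in hda9-1, while the ABA bars of XTH4 are close, at 198 and 194 CPM.

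Without ABA, 7 members were called lower in hda9-1 and none was called higher. Those that fell against wild type were XTH8, XTH12, XTH17, XTH19, XTH20, XTH23 and XTH25, where 6.57% of all tested genes fell and 6.98% rose (13.5% in all). The median over the 30 tested members was -0.42 log2 against -0.04 for all genes tested, and 24 of 30 values were negative, against 54.3% of all. Genes of up to 1273 nt, near the members' median length, had a median of -0.14. Groups did not overlap for 15 of 30 members, against 36.5% of all genes. Of all genes called, 51.5% were higher with TMM scaling and 35.1% with library size alone, where 8 members were lower and 0 higher. The count of 7 rested on single libraries: it was 2 without wild-type no-ABA sample 2 and 3 without hda9-1 no-ABA sample 3.

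**Figure D4:**
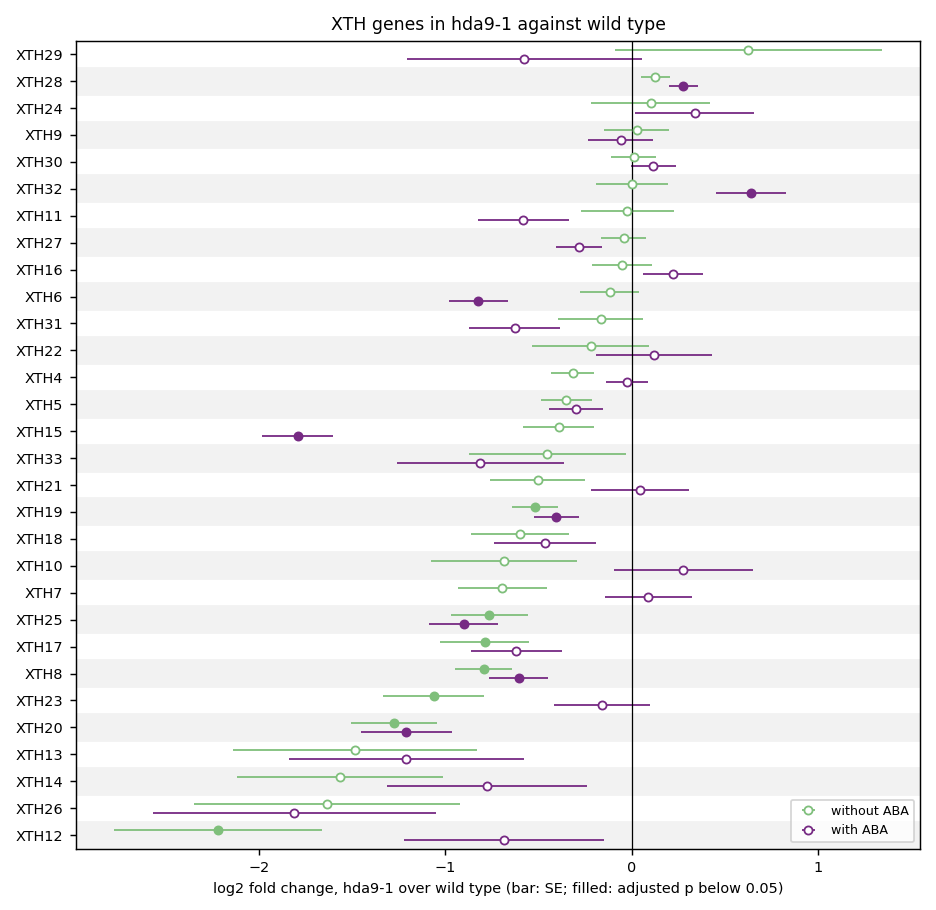
log2 fold change of hda9-1 over wild type (x axis, bar: SE) for each tested XTH gene, without and with ABA, filled where the adjusted p was below 0.05. Most points lie left of 0, from -2.22 for XTH12 without ABA, and the point of XTH15 with ABA stands at -1.79, apart from its value of -0.39 without ABA.

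XTH20 and XTH8 were the members whose lower level in hda9-1 without ABA held whichever of the 12 libraries was left out. The values given above put XTH20 at 4.61 to 5.46 CPM in wild type and 1.61 to 2.39 CPM in hda9-1, with no overlap and a log2 fold change of -1.27 ± 0.23 (adjusted p = 0.0028). XTH8 stood at 36.8 to 41.5 CPM in wild type and 18.7 to 26.7 CPM in hda9-1, also apart (-0.79 ± 0.15, adjusted p = 0.0039). XTH25, at 3.42 to 4.63 against 1.83 to 2.94 CPM, differed by -0.76 ± 0.21 (adjusted p = 0.025), a call that ended without wild-type no-ABA sample 1 (adjusted p = 0.099), wild-type no-ABA sample 2 (adjusted p = 0.063), hda9-1 no-ABA sample 1 (adjusted p = 0.063) or hda9-1 no-ABA sample 3 (adjusted p = 0.11). limma-voom also missed it (-0.79, adjusted p = 0.13).

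XTH19, a close relative of XTH18, had 14.6, 17.3 and 15.7 CPM without ABA and 16.9, 17.7 and 17.7 CPM with it in wild type, and in hda9-1 it had 11.8, 10.8 and 10.6 CPM without ABA and 15.3, 11.2 and 13.0 CPM with it. ABA left it without a call in both (0.14 ± 0.12, adjusted p = 0.43 in wild type, and 0.25 ± 0.12, adjusted p = 0.11 in hda9-1), and the mutant samples were lower than wild type without overlap in each condition. Its difference without ABA was -0.52 ± 0.12 (adjusted p = 0.012), which ended without wild-type no-ABA sample 2 (adjusted p = 0.063) or hda9-1 no-ABA sample 3 (adjusted p = 0.051). XTH17 differed by -0.79 ± 0.24 (adjusted p = 0.04) without ABA, and kept that call in 4 of 12 fits that left out 1 library (wild-type ABA sample 2 or 3, hda9-1 no-ABA sample 1, or hda9-1 ABA sample 2), with an adjusted p of up to 0.14 in the others. It also ended with length and GC trends removed (adjusted p = 0.062). XTH23 differed by -1.06 ± 0.27 (adjusted p = 0.019), and its call ended without wild-type no-ABA sample 2 (adjusted p = 0.091), wild-type no-ABA sample 3 (adjusted p = 0.055), hda9-1 no-ABA sample 1 (adjusted p = 0.056) or hda9-1 no-ABA sample 3 (adjusted p = 0.064).

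XTH12 belongs with XTH13, XTH14 and XTH26 to the members known from roots, the last pair from root hairs. It had 2.90, 8.30 and 3.70 CPM without ABA and 2.26, 2.40 and 3.65 CPM with it in wild type, and in hda9-1 it had 1.86, 1.06 and 0.281 CPM without ABA and 2.03, 2.03 and 1.10 CPM with it. Without ABA the lowest wild-type sample was above the highest hda9-1 sample, wild-type sample 2 was the highest of the 12 and hda9-1 sample 3 the lowest. The difference without ABA was -2.22 ± 0.56 (adjusted p = 0.022), and it ended without wild-type no-ABA sample 2 (adjusted p = 0.079) or hda9-1 no-ABA sample 2 (adjusted p = 0.073). XTH13, XTH14 and XTH26 had values of -1.49 ± 0.65, -1.56 ± 0.55 and -1.64 ± 0.71 (log2) in the same comparison, with adjusted p of 0.16, 0.10 and 0.15, and the same samples at the extremes of the 6 without ABA. XTH14 had 25.0, 55.5 and 28.8 CPM in wild type without ABA and 21.1, 12 and 3.87 CPM in hda9-1. The root-hair gene COBL9 also had its highest value, 7.24, 10.3 and 6.45 CPM, in wild-type sample 2 and its lowest, 4.96, 3.84 and 0.963 CPM, in hda9-1 sample 3. CASP1, CASP2 and MYB36 had the same samples at the extremes of the 6 without ABA. The root markers RHD6, WER, PLT1, PIN2, SHR and SCR did not. RHD6 had 2.18, 3.235 and 3.59 CPM in wild type and 1.61, 3.52 and 1.425 CPM in hda9-1. Of the 10 root markers CASP2, MYB36 and PIN2 were lower in hda9-1 without ABA and none was higher, against 6.57% and 6.98% of all tested genes. The sums of the root markers given above did not overlap between the genotypes. Their part in the lower XTH levels was not tested.

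With ABA, 6 members were lower in hda9-1 and 2 were higher, against 5.21% and 7.5% of all tested genes (12.7% in all). The median was -0.44 against 0.02 for all genes, 21 of 30 values were negative, against 48.2% of all, and groups did not overlap for 15 of 30 members, against 29.5% of all. The median was 0.20 for genes of up to 1273 nt. Of all genes called, 59% were higher with TMM scaling and 45.9% with library size alone, where 6 members were lower and 0 higher. The comparisons without and with ABA share no samples, and XTH8, XTH19, XTH20 and XTH25 were lower in both, 57.1% of the 7 lower without ABA and 66.7% of the 6 lower with it. Over all tested genes those shares were 32.8% and 41.4%. The other 2 lower with ABA were XTH6 and XTH15. The 2 higher became 0 without wild-type ABA sample 3 or hda9-1 ABA sample 3, and 1 without wild-type ABA sample 1 or 2, hda9-1 no-ABA sample 1, or hda9-1 ABA sample 1 or 2.

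Among the called members XTH15 differed most, since its wild-type ABA samples were at 198 to 231 CPM and those of hda9-1 at 45.2 to 71.7 CPM, with a log2 fold change of -1.79 ± 0.19 (adjusted p = 0.00042). XTH6, at 81.1 to 106 against 43.2 to 60.6 CPM, differed by -0.82 ± 0.16 (adjusted p = 0.0059). XTH20 differed by -1.21 ± 0.24 (adjusted p = 0.0057), and XTH25 by -0.90 ± 0.18 (adjusted p = 0.0059). These 4 calls held whichever library was left out, and none of their groups overlapped. XTH8 differed by -0.61 ± 0.16 (adjusted p = 0.021), and ended without wild-type ABA sample 1 (adjusted p = 0.097), hda9-1 ABA sample 1 (adjusted p = 0.079) or hda9-1 ABA sample 3 (adjusted p = 0.053). XTH19 differed by -0.40 ± 0.12 (adjusted p = 0.041), and kept its call in 4 of 12 such fits (without wild-type no-ABA sample 1, hda9-1 no-ABA sample 1 or 3, or hda9-1 ABA sample 1), with an adjusted p of up to 0.1 in the others. CASP2 was the root marker that was lower here, 10% of the 10, against 5.21% of all tested genes. The root markers summed to 76.5 to 95.4 CPM in hda9-1 and 97.95 to 114.5 CPM in wild type. Their part in these results was not tested.

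The 2 members higher in hda9-1 with ABA were XTH28 and XTH32. XTH28, known from stamen filaments, had 35.5, 38.9 and 38.2 CPM without ABA and 41.1, 37.4 and 37.4 CPM with it in wild type, and in hda9-1 it had 39.8, 43.1 and 40.0 CPM without ABA and 47.5, 46.8 and 46.1 CPM with it. Its hda9-1 ABA samples were above all others by a narrow margin (0.28 ± 0.08, adjusted p = 0.03). The 4 floral organ markers summed to 5.49 to 8.89 CPM in hda9-1 with ABA and 1.59 to 3.74 CPM in wild type with ABA. SEP3 supplied most of both sums, with means of 6.405 and 2.113 CPM in this order. PI was at 0.457 and 0.46 CPM and AG at 0.228 and 0.136 CPM. AP3 went the other way, at 0.0135 and 0.144 CPM. Of 3 tested, SEP3, which specifies floral organs, was higher (1.59 ± 0.45, adjusted p = 0.036) and none was lower, against 7.5% and 5.21% of all tested genes. AP3, not tested, was at 0 to 0.19 CPM in each of the 12 samples. The part of the floral organ markers in the level of XTH28 was not tested. XTH32 overlapped between the genotypes (0.64 ± 0.19, adjusted p = 0.035). Both calls ended without scaling factors (adjusted p = 0.061 for XTH28 and 0.058 for XTH32). XTH28 kept its call in 7 of 12 fits that left out 1 library and lost it without wild-type ABA sample 2 (adjusted p = 0.12), wild-type ABA sample 3 (adjusted p = 0.1), hda9-1 no-ABA sample 1 (adjusted p = 0.066), hda9-1 ABA sample 1 (adjusted p = 0.081) or hda9-1 ABA sample 3 (adjusted p = 0.065). XTH32 lost it without wild-type ABA sample 1 (adjusted p = 0.14), wild-type ABA sample 3 (adjusted p = 0.14), hda9-1 ABA sample 2 (adjusted p = 0.056) or hda9-1 ABA sample 3 (adjusted p = 0.14).

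No member's ABA response was called different between the genotypes by edgeR, and neither was any of the 20924 genes, at adjusted p below 0.05 (0% called). At an unadjusted p below 0.05 edgeR counted 5 members (XTH6, XTH7, XTH15, XTH23 and XTH32) and 2467 genes, 11.8% of those tested. limma-voom called 0 genes and had 5 members at that unadjusted level, and DESeq2 called 123 genes, 1 of them XTH15, with 6 members unadjusted. Over all genes the unadjusted share was 10.4% with limma-voom and 13.1% with DESeq2. The median difference was 0.14 over the tested members, 0.02 over all genes and 0.32 over genes of up to 1273 nt. A missed threshold does not show that the responses were alike. For XTH15 the response was smaller in hda9-1 by a log2 difference of -1.40 ± 0.27 (edgeR, adjusted p = 0.19), -1.42 ± 0.27 (limma-voom, adjusted p = 0.35) and -1.44 ± 0.25 (DESeq2, adjusted p = 3.2e-05). Without hda9-1 ABA sample 2 the edgeR value was -1.26, with an adjusted p of 0.0087, so the absence of an edgeR call for XTH15 depended on 1 library. The differences by edgeR were -0.70 ± 0.22 (adjusted p = 0.3) for XTH6, 0.90 ± 0.37 (adjusted p = 0.38) for XTH23, 0.78 ± 0.33 (adjusted p = 0.4) for XTH7 and 0.64 ± 0.27 (adjusted p = 0.38) for XTH32.

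Several members lie side by side in TAIR10.1. On chromosome 5 the run XTH12, XTH13, XTH25 and XTH22 is all on the minus strand, chr5:23300321-23301689 for XTH12, with 1097 nt and 1 other gene before XTH13, 686 nt to XTH25 and 565 nt to XTH22. In wild type the log2 fold changes with ABA along it were -0.84 ± 0.52, 0.47 ± 0.61, 2.86 ± 0.20 and 0.62 ± 0.31. XTH25 was the 1 member of the run that passed the test, which 30.9% of all tested genes passed. On chromosome 4 XTH24, XTH18 and XTH19 follow each other at 5161 and 1500 nt, with values of 0.90 ± 0.32, -1.35 ± 0.27 and 0.14 ± 0.12, so XTH18 fell between a pair of neighbours with positive values. XTH23 and XTH14 lie 363 nt apart on the same chromosome, at 0.67 ± 0.26 and 0.42 ± 0.53. Differences between neighbours were not tested.

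**Figure D5:**
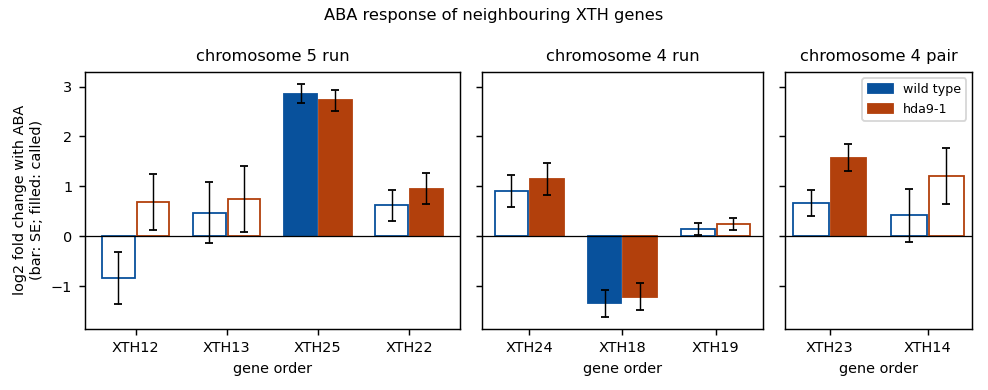
log2 fold change with ABA (bar: SE, filled where called) of neighbouring XTH genes in wild type and hda9-1, in chromosome order. XTH25 stands at 2.86 and 2.72 between neighbours below 1.0, and XTH18 is negative between XTH24 and XTH19.

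Close copies could share reads. The most alike coding sequences were XTH17 and XTH18 (92.2% identical over the shorter), XTH12 and XTH13 (89.7%) and XTH18 and XTH19 (88.6%). No 75-base window was identical within any of the 12 closest pairs, and the longest exact run was 68 nt, in XTH18 and XTH19. How the counting treated reads that match several genes is not stated. In these pairs XTH18 fell with ABA where XTH19 was not called.

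The 12 members with tgg as first codon of the catalytic stretch included 6 of the 7 lower in hda9-1 without ABA, against 1 of the 18 other tested members and 6.57% of all tested genes, and their medians were -0.78 and -0.14 log2. Of those 6, only XTH20 held its call whichever library was left out. With ABA 3 of 12 and 3 of 18 were lower, against 5.21% of all, at medians of -0.54 and -0.29. In that comparison 0 of 12 and 2 of 18 were higher, against 7.5% of all. The tgg class holds XTH12 to XTH14 and XTH17 to XTH21, given above as known from roots, and the part of the root markers was not tested. This grouping was made with the values known and is a description.

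Tested but called by edgeR in no comparison were XTH9, XTH13, XTH14, XTH16, XTH26 and XTH27. Other fits called some of them: XTH9 rose in wild type with DESeq2 (adjusted p = 0.011), RLE scaling (adjusted p = 0.04) and only the 2 groups fitted (adjusted p = 0.00044). XTH27 rose there with a replicate block (adjusted p = 0.033) and with only the 2 groups fitted (adjusted p = 0.0091). XTH14 was lower in hda9-1 without ABA with DESeq2 (adjusted p = 0.04). XTH9, linked to growth of shoot tips and of xylem, had 146, 155 and 155 CPM without ABA and 234, 223 and 181 CPM with it in wild type, without overlap (0.49 ± 0.18, adjusted p = 0.051). XTH9 in hda9-1 overlapped, at 116, 152 and 196 CPM without ABA and 201, 166 and 245 CPM with it. XTH16, the closest relative of XTH15 (81.4% identical), had 23.7, 28.1 and 24.3 CPM without ABA and 24.5, 23.5 and 19.7 CPM with it in wild type, and in hda9-1 it had 18.0, 26.7 and 28.6 CPM without ABA and 26.7, 21.9 and 30.3 CPM with it, and all its groups overlapped. XTH27 ranged from 126 to 205 CPM over the 12 samples. XTH1, XTH2 and XTH3 had 0 to 2 counts in every library, under the 3-count floor of 0.054 to 0.0712 CPM, and no difference was detectable at that depth.

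Of the 14 genes that build the backbone and side chains of xyloglucan, 7.14% were called for ABA in wild type, 28.6% for ABA in hda9-1, 14.3% for the mutant against wild type in untreated seedlings and 21.4% in sprayed ones, against 30.9%, 41.9%, 13.5% and 12.7% of all tested genes. XLT2, a galactosyltransferase, rose in wild type (0.58 ± 0.18, adjusted p = 0.023) and none fell, with a median of -0.04. In hda9-1 XLT2 and CSLC12, a glucan synthase, rose (0.73 ± 0.18, adjusted p = 0.0046, and 1.71 ± 0.33, adjusted p = 0.00068), and CSLC8 and XXT3 fell. Without ABA, CSLC12 and MUR3 were lower in hda9-1. CSLC12 had 3.01, 6.72 and 3.01 CPM in wild type and 1.49, 1.08 and 0.682 CPM in hda9-1, without overlap (-1.97 ± 0.33, adjusted p = 0.0019). Its extremes without ABA lay in wild-type sample 2 and hda9-1 sample 3, as for XTH12 and COBL9 above. The part of the root markers in this difference was not tested. With ABA, CSLC5, CSLC8 and XXT3 were lower, XXT3 by -1.26 ± 0.28, adjusted p = 0.0092.

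Of 5 genes for xyloglucan breakdown, none rose in any comparison, where 6.98% to 23.3% of all tested genes rose. So few genes cannot tell an absence of rises from those shares. For ABA in wild type and in hda9-1, 40% were called in each, against 30.9% and 41.9% of all. For hda9-1 against wild type, 20% were called without ABA and 40% with it, against 13.5% and 12.7% of all. BGAL10, a galactosidase, and AT5G20950 fell with ABA in wild type, and AT5G20950 and XYL1, a xylosidase, in hda9-1. AT5G20950 was also lower in hda9-1 than in wild type without ABA and, with XYL1, with ABA.

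Expansins loosen walls without cutting xyloglucan, and most of those called fell. Of 17 tested, 9 fell and 1 rose with ABA in wild type, against 14% and 17% of all genes, with a median of -0.44. In hda9-1, 6 fell and 1 rose, against 18.6% and 23.3% of all genes. The share called there was 41.2%, against 41.9% of all genes. EXPA1 had 198, 184 and 208 CPM in wild type without ABA and 33.2, 30.5 and 32.3 CPM with it (-2.62 ± 0.14, adjusted p = 1.1e-09). EXPA16 went the other way, from 16.1, 11.7 and 15.2 CPM to 189.9, 194 and 221 CPM (3.82 ± 0.23, adjusted p = 1.2e-07), without overlap. In hda9-1, EXPA9 and EXPA11 were lower than in wild type without ABA, and EXPA1, EXPA3 and EXPA4 with ABA, and no expansin was higher in either. These were 11.8% and 17.6% of the 17 tested. Of all tested genes 6.57% and 5.21% were lower, and 13.5% and 12.7% were called in all.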

How the data were processed

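The values are deposited counts, whole numbers for each gene in each of 12 samples, and per the submitters' processing notes the authors used Bowtie2, Salmon, limma 3.56 and TAIR10. Which of these made the counts is not given in the sources used here. Gene identifiers were matched to the RefSeq TAIR10.1 annotation for 23655 of 23911 genes, and 33 of 33 XTH genes matched. In R 4.3.3, edgeR 4.0.16 kept 20924 genes (filterByExpr, minimum count 10, minimum total 15) with 99.99% of all counts. After TMM scaling, 1 robust quasi-likelihood model with 4 group means was fitted to all samples. Tests were two-sided, with p-values adjusted by Benjamini and Hochberg over all tested genes of each contrast and calls made below 0.05. Log2 fold changes carry their SE. Alternatives used limma 3.58.1 (voom) and DESeq2 1.42.0, other scalings and filters, and fits without single libraries. The kit marks strand, and reads carry no molecular identifiers, so floors cover counting error only. Every member called in any contrast was described with all its samples. The members and lists were chosen with earlier results of these data known.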

Additional observations from a re-analysis of the deposited data

How the results depend on the processing

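None of the 46 calls of XTH members changed sign under any of 24 alternatives. A change of sign was unlikely beforehand for genes called from the same counts, and the threshold of 0.01 reuses the main fit. The calls kept say more. DESeq2 kept all 46, limma-voom 45 (XTH25 without ABA was lost), upper-quartile scaling 45, RLE scaling 44, no filter and no scaling factors 43 each, removal of length and GC trends 42 (XTH32 in wild type, XTH22 and XTH30 in hda9-1 and XTH17 without ABA were lost), that removal with a replicate block 40, a fit of only the compared groups 38 and an adjusted p below 0.01 27, fits without 1 library kept 36 to 42, and the filter at 1 CPM in 3 samples kept all 45 that it tested. The ABA response in wild type gave 7 members higher, but 11 with only the 2 groups compared, 3 at an adjusted p below 0.01, and 3 to 9 when 1 library was left out. For hda9-1 against wild type without ABA, the 7 lower became 2 at an adjusted p below 0.01 and 2 to 7 with 1 library left out. With ABA, the 2 higher became 0 with library size alone, 0 with only the 2 groups compared, 0 at an adjusted p below 0.01 and 0 to 2 with 1 library left out. For the difference of the ABA responses, the 0 lower became 1 with DESeq2 and 0 to 1 with 1 library left out. The causes were not tested. Calls held whichever library was left out for 9 of 15, 12 of 16, 2 of 7 and 4 of 8 members in the order of the comparisons above. Groups share replicate numbers, but over 18 pairs the correlation of same-numbered samples ran from -0.253 to 0.208, with 4 above 0.1, so the numbers were not taken to pair the samples. With the replicate number as a block, 41 of 46 calls held, with 8 higher and 7 lower for ABA in wild type, and those lost were XTH17 in wild type, XTH22, XTH30 and XTH33 in hda9-1, and XTH19 with ABA. Depth limits XTH1, XTH2 and XTH3.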
